A study of Homo sapiens with 4 samples.

Results

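SFPQ, NONO, PSPC1, TARDBP, MATR3 and RBM14 encode RNA-binding proteins of the paraspeckle. The study also showed SFPQ as a control gene in its Pol II ChIP-Seq of serum-stimulated cells. The genes were chosen by symbol, through the Ensembl identifiers of the count table with the version removed. The 6 symbols matched 7 of the 19901 gene rows, since MATR3 is listed under 2 identifiers, and 4 of the 7 rows were tested. TT-Seq purifies RNA made during a pulse of 4-thiouridine and so reads new transcription, here in HCT116, a colon cancer cell line. All libraries come from a single clone in which the endogenous KAP1 protein (gene TRIM28) carries a degron, through which the compound dTAG leads to its degradation, so that the DMSO controls carry the tag as well. Cells received DMSO, the vehicle, or dTAG for 8 h, followed by 500 μM 4-thiouridine for 10 min in medium with serum, with 2 libraries for each condition.

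Paraspeckles are nuclear bodies built on the long noncoding RNA NEAT1, which was not analysed here because the counts cover protein-coding genes. SFPQ, NONO and PSPC1 form the DBHS family, whose proteins pair with one another through conserved RNA recognition motifs and coiled coils. They act in transcription, splicing, polyadenylation and RNA retention in the nucleus, and SFPQ and NONO are required for the assembly of paraspeckles. RBM14 is needed for the same assembly and holds a prion-like domain. TARDBP encodes TDP-43, a splicing repressor that binds UG-rich RNA, and MATR3 encodes matrin 3, a protein of the nuclear matrix that binds RNA.

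The counts of protein-coding genes summed to between 93105627 and 102314741 per library. TRIM28 had 61.7 and 69.8 CPM (counts relative to the library size, scaled by TMM) with DMSO and 53.5 and 47.9 CPM with dTAG, and because dTAG acts on the protein, its RNA does not check the labels. Of 7 markers of colorectal epithelium, 6 had at least 50 counts in every library, while VIL1 had 1 to 15. The 7 together stood at 1137 and 1171 CPM with DMSO and at 1162 and 1063 CPM with dTAG. The 4 markers of leukocytes, endothelium, fibroblasts and muscle together stood at 5.22 to 6.24 CPM, most of it COL1A1 with 420 to 538 counts, and PTPRC was at 0 in all libraries except 1 count in dTAG replicate 2.

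Only part of the 6 genes could be measured, and the sequences around their start sites show where the rows of the table begin. Each window below runs from 250 bases before to 50 bases after a RefSeq start on GRCh38.p14, is written 5′ to 3′ on the strand of the gene, and was available for 5 of the 6 genes, SFPQ being the exception. In the windows of RBM14 and MATR3, capitals mark bases that belong to a row of that gene and that no other gene of the table shares on the same strand.
RBM14, chr11:66616380-66616679, plus strand: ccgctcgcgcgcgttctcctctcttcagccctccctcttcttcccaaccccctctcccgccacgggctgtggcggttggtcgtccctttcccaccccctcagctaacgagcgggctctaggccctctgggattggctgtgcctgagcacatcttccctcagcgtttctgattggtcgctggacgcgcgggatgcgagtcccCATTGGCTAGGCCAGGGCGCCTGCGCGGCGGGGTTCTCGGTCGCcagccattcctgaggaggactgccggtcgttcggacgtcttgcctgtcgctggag
MATR3, downstream start, chr5:139293490-139293789, plus strand: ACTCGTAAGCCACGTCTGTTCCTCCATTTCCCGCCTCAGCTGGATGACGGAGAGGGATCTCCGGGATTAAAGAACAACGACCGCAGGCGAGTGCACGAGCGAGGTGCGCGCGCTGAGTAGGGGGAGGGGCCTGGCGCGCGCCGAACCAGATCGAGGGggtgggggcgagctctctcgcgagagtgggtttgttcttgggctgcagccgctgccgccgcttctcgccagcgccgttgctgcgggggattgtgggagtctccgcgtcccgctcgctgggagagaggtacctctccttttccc
In RBM14 the capitals are the whole unshared part of the row. They end 6 bases before the RefSeq start. In MATR3 the capitals stop where the row of the shorter identifier begins, and the bases after that point are common to both rows.

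In the next windows, capitals mark the letters CGCCATTTT, which were looked for on both strands after the sequences had been read.
NONO, chrX:71283385-71283684, plus strand: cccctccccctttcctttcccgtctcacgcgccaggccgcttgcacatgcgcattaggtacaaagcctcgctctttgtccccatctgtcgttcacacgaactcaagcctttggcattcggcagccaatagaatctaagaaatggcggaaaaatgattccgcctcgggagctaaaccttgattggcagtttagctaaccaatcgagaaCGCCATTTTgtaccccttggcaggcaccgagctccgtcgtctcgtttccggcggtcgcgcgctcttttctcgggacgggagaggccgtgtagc
PSPC1, chr13:19782896-19783195, minus strand: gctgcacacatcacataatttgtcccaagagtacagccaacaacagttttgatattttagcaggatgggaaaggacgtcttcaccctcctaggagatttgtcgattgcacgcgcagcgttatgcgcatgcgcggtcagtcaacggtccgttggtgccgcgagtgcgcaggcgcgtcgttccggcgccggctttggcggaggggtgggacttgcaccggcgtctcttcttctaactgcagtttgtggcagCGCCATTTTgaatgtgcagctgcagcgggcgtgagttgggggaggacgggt
TARDBP, chr1:11012404-11012703, plus strand: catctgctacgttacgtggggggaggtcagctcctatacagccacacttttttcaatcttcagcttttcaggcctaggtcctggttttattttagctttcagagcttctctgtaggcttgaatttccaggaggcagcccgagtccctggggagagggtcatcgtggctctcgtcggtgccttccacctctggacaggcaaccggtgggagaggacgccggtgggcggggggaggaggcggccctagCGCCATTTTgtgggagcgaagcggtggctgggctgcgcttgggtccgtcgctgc
The motif begins at position -43 in NONO, -1 in PSPC1 and -4 in TARDBP, counting the RefSeq start as 0. It is in 3 of the 6 windows of these genes, which include an upstream start of MATR3 whose window is not printed. Since the motif was picked from these windows, its share of all windows of that length, 256 of 35116 (0.729%), is background and no comparison. The windows are shown for these shared letters near the start, a description and not a site.

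TARDBP, RBM14 and the shorter MATR3 row had at most 9 counts in any library. TARDBP (ENSG00000120948.16, hg38 chromosome 1 from 11012343 to 11026420) had 1 and 9 counts with DMSO and 3 and 0 with dTAG. RBM14 (ENSG00000239306.4, chromosome 11 from 66616581 to 66627347) had 3 and 0 counts with DMSO and 0 and 1 with dTAG. The shorter MATR3 row (ENSG00000015479.18, chromosome 5 from 139293647 to 139331677) had 2 and 0 counts with DMSO and 3 and 2 with dTAG. These counts lie at the level that a count of 0 allows, 3 counts or about 0.0300 to 0.0332 CPM, except for the 9 counts of TARDBP in DMSO replicate 2, and no fold change is given for them. All 3 rows fell under the minimum of 50 counts in all 4 libraries.

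Nearly the whole length of these 3 rows is shared with another gene on the same strand. TARDBP shares 13760 of its 14078 bases with ENSG00000277726.4, which has no symbol in the tables used, and keeps 318 bases of its own. RBM14 shares 10723 of 10767 bases with the readthrough gene RBM14-RBM4 and keeps 44. The shorter MATR3 row shares 38025 of 38031 bases with the longer one and keeps 6. Over the whole table, 667 genes longer than 5000 bases keep at most 500 bases unshared on their own strand, and 85.0% of them had 10 or fewer counts in every library, against 19.8% of the 11339 genes of that length that overlap no other gene. Of 391 genes of that length that are covered to the same extent by a gene on the opposite strand alone, 35.5% had 10 or fewer counts. The counts of these 3 rows are not read here as the transcription of TARDBP or RBM14.

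**Figure D1:**
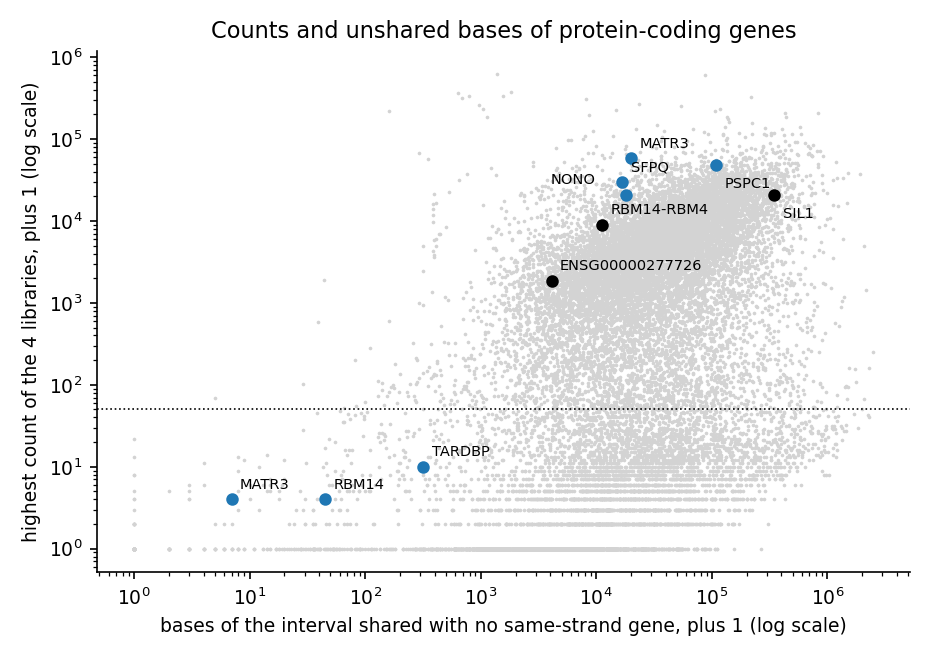
Highest count of the 4 libraries for each of 19901 protein-coding genes (y axis, plus 1, log scale) against the bases of its interval that no other gene of the table shares on the same strand (x axis, plus 1, log scale). Blue points are the 7 rows of the 6 genes and black points the genes that overlap them, and the dotted line is the minimum of 50 counts: TARDBP, RBM14 and the shorter MATR3 row, with 6 to 318 unshared bases, lie under it and the other 4 rows lie above it.

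The rows that overlap TARDBP and RBM14 had counts past the minimum. Each count is for a whole interval, so that where in it the reads lie was not tested. ENSG00000277726.4 keeps bases 11026421 to 11030528 of chromosome 1, all of which lie within TARDBP in GENCODE 44, and had 1747 and 1856 counts with DMSO and 1645 and 1665 with dTAG. The libraries of both conditions overlapped, at 17.6 and 18.6 CPM with DMSO and 16.4 and 18.5 CPM with dTAG. Its log2 fold change was -0.056 (95% interval -0.30 to 0.19), and it was not called (edgeR, adjusted p = 0.79, quasi-likelihood, Benjamini-Hochberg). Divided by its unshared bases, its level was 4.00 to 4.53 CPM per kilobase, while the 318 bases of TARDBP stood at 0 to 0.284 CPM per kilobase. Nearly all of this stretch is covered on the opposite strand by MASP2, which encodes a protease of the complement system.

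RBM14-RBM4 keeps 11268 bases past the end of the RBM14 row, of which 2587 lie within RBM14 in GENCODE 44 and all of these are exonic there. It had 81.6 and 90.2 CPM with DMSO and 76.5 and 76.6 CPM with dTAG, so that both dTAG libraries lay below both DMSO libraries. The conditions were likewise without overlap, in either direction, for 58.8% of all tested genes. The log2 fold change was -0.17 (95% interval -0.34 to 0.010), and it did not pass the threshold (edgeR, adjusted p = 0.21). Its reads can come from RBM14 or from transcription that runs on toward RBM4, and these cannot be told apart.

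The longer MATR3 row (ENSG00000280987.4, chromosome 5 from 139273751 to 139331671) passed the minimum and keeps 19896 bases of its own, upstream of the shorter row. That part contains SNHG4, a noncoding gene of the same strand with 10798 bases in it, and the small nucleolar RNA genes SNORA74A and SNORA74D. The part of SNHG4 in the counts of MATR3 was not tested. On the opposite strand the same stretch is covered by SIL1, which leaves 89 bases that no gene of either strand shares, yet the row had 47350 to 58374 counts.

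Among the 4 rows that could be tested, none passed the threshold between dTAG and DMSO. SFPQ, NONO, PSPC1 and MATR3 had 0 genes called at an adjusted p under 0.05 by edgeR, 0 at an unadjusted p under 0.05 and 0 by DESeq2, which called 10.1% of all tested genes. In the edgeR fit 895 of all 12612 tested genes were called (7.1%), 3.44% higher and 3.66% lower, with 26.6% at an unadjusted p under 0.05 and 1.64% both called and past a 1.5-fold change. The fold changes ran from -0.077 to 0.093 on the log2 scale with a median of -0.031, and the median of all tested genes was -0.015. The 95% intervals of all 4 stayed within a 1.5-fold change in either direction. CPM are relative to the other genes of a library, so that less RNA per cell and fewer cells cannot be told apart, nor can a change common to all genes be seen.

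SFPQ (ENSG00000116560.10, chromosome 1 from 35176377 to 35193148, minus strand) overlaps no other gene of the table. It had 28559 and 29037 counts with DMSO and 29560 and 29114 with dTAG, or 288 and 291 CPM with DMSO and 295 and 323 CPM with dTAG. Both dTAG libraries lay above both DMSO libraries, as dTAG and DMSO libraries did without overlap, in either direction, for 58.8% of all tested genes, and dTAG replicate 2 stood apart from the other 3 libraries. The means were 290 ± 1.91 CPM (SD, n = 2) with DMSO and 309 ± 19.4 CPM (SD, n = 2) with dTAG. For SFPQ, the difference on the log2 scale of 0.093 (standard error 0.093, 95% interval -0.10 to 0.29) was not called (edgeR, adjusted p = 0.54). On the linear scale, the ratio was 1.07 with an interval from 0.933 to 1.22. Without dTAG replicate 2 the log2 fold change was 0.027, and without dTAG replicate 1 it was 0.16.

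NONO (ENSG00000147140.15, chromosome X from 71283191 to 71301168), a dimer partner of SFPQ, had 212 and 205 CPM with DMSO and 196 and 199 CPM with dTAG. Both dTAG libraries lay below both DMSO libraries, a separation seen in either direction for 58.8% of all tested genes. The means were 208 ± 4.72 CPM with DMSO and 198 ± 1.77 CPM with dTAG (SD, n = 2). Its log2 fold change of -0.077 (standard error 0.087, 95% interval -0.26 to 0.10) was not called (edgeR, adjusted p = 0.59). It stayed under 0 without any 1 library, between -0.10 and -0.054.

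PSPC1 (ENSG00000121390.18, chromosome 13 from 19674751 to 19783019, minus strand), the third DBHS gene and the longest row of the group at 108 kb, had 481 and 441 CPM with DMSO and 461 and 458 CPM with dTAG. The dTAG libraries lay between the DMSO libraries. With a log2 fold change of -0.0051 (standard error 0.097, 95% interval -0.21 to 0.20), it was not called (edgeR, adjusted p = 0.98). The sign turned with the library left out, to 0.058 without DMSO replicate 1 and -0.066 without DMSO replicate 2. With each library's trend on GC content and gene length removed, PSPC1 was lower by a log2 fold change of -0.13 and was called (edgeR, adjusted p = 0.040, and 0.040 to 1.00 across alternatives), in a fit that called 18.1% of all tested genes.

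The longer MATR3 row had 535 and 585 CPM with DMSO and 552 and 525 CPM with dTAG. The libraries of the 2 conditions overlapped, and the means were 560 ± 35.6 CPM and 538 ± 18.9 CPM (SD, n = 2). For MATR3, the difference on the log2 scale of -0.057 (standard error 0.10, 95% interval -0.27 to 0.15) was not called (edgeR, adjusted p = 0.74). SIL1, a cochaperone gene of the endoplasmic reticulum on the opposite strand, had 202 and 195 CPM with DMSO and 207 and 224 CPM with dTAG, and its log2 fold change of 0.12 did not pass the threshold (edgeR, adjusted p = 0.40).

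**Figure D2:**
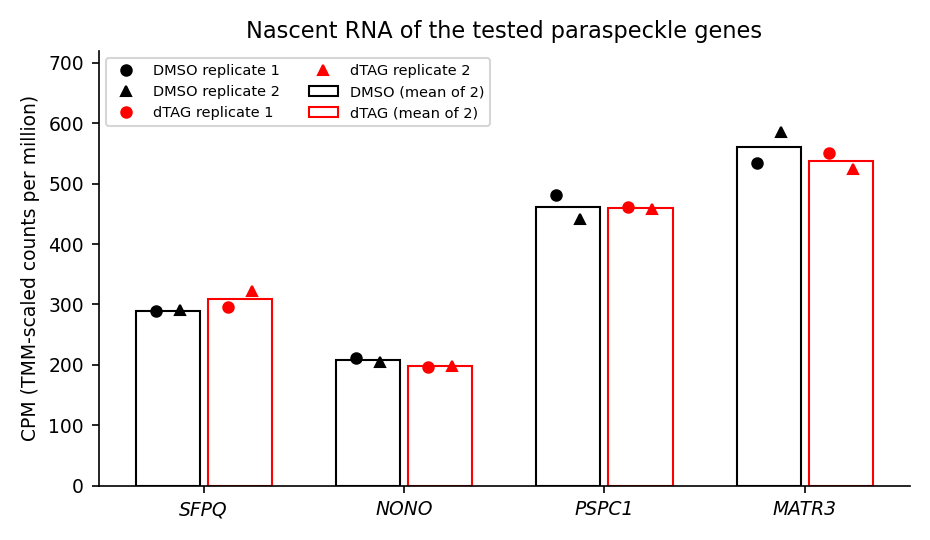
CPM (y axis, counts relative to the library size, scaled by TMM) of the 4 tested rows, with open bars for the mean of 2 libraries, circles for replicate 1 and triangles for replicate 2, DMSO in black and dTAG in red. The means with DMSO and dTAG are 290 against 309 for SFPQ, 208 against 198 for NONO, 461 against 459 for PSPC1 and 560 against 538 for MATR3.

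Counting error alone gives a standard error of at most 0.011 on the log2 scale for any of the 4 rows in 1 library, while the log2 ratio between replicates reached 0.13 for SFPQ with dTAG, 0.13 for MATR3 with DMSO and -0.12 for PSPC1 with DMSO. The ratio was smaller in the other pairs, at 0.013 for SFPQ with DMSO, -0.072 for MATR3 with dTAG, -0.0096 for PSPC1 with dTAG, and -0.046 with DMSO and 0.018 with dTAG for NONO, and the smallest of these are near the size of counting error. Over the 4 libraries, the SD of log2 CPM was 0.049 for NONO, 0.050 for PSPC1, 0.069 for MATR3 and 0.075 for SFPQ, against a median of 0.13 over all tested genes. Of the tested genes, 7.54% had a lower SD than NONO and 19.5% a lower SD than SFPQ.

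**Figure D3:**
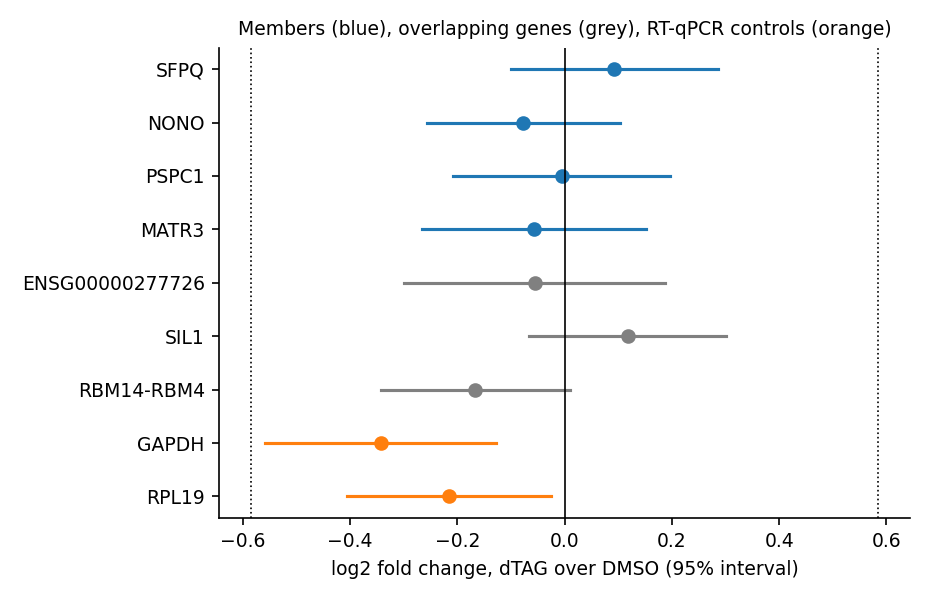
Log2 fold change of dTAG over DMSO (x axis) with its 95% interval (lines) for the 4 tested rows (blue), the rows that overlap TARDBP, MATR3 and RBM14 (grey) and the RT-qPCR control genes (orange), with dotted lines at a 1.5-fold change. The intervals of the 4 rows include 0, and those of GAPDH and RPL19 do not.

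Ratios taken within a library do not depend on the scaling. The counts of NONO were 0.734 and 0.705 of those of SFPQ with DMSO and 0.665 and 0.616 with dTAG, so that both dTAG libraries were lower. How often ratios of other genes separate in this way was not tested. The mean log2 ratio of NONO to SFPQ was lower with dTAG by a difference of -0.17, with a pooled SD between replicates of 0.063. For MATR3 the ratios to SFPQ were 1.85 and 2.01 with DMSO and 1.87 and 1.63 with dTAG, and for PSPC1 they were 1.67 and 1.52 with DMSO and 1.56 and 1.42 with dTAG. In both genes the conditions overlapped. With 2 libraries against 2, an exact permutation test cannot reach p < 0.05, and none was used for these ratios.

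GAPDH and RPL19, which the study used as controls for RT-qPCR, encode a glycolytic enzyme and a ribosomal protein. That RT-qPCR measured extracted RNA of serum-starved and serum-stimulated cells, while TT-Seq here reads new RNA of cells kept in serum. Both genes had lower values with dTAG in TT-Seq, except with ERCC totals as library sizes, where they were at 0.30 and 0.44 on the log2 scale. GAPDH had a log2 fold change of -0.34 (standard error 0.10) and was just past the threshold (edgeR, adjusted p = 0.049, and 2.4e-04 to 0.95 across settings). RPL19 stood at -0.21 and was not called (edgeR, adjusted p = 0.14, and 0.0025 to 0.96 across settings, with a call in 4 of 17). Relative to GAPDH within a library, the log2 ratio of SFPQ was -1.43 and -1.44 with DMSO and -1.14 and -0.86 with dTAG, a 1.35-fold higher ratio. NONO, PSPC1 and MATR3 had ratios to GAPDH 1.20, 1.27 and 1.22 times as high with dTAG. Ratios to RPL19 rose less, to 1.24, 1.10, 1.16 and 1.12 times as high for SFPQ, NONO, PSPC1 and MATR3. A ratio shows only that 2 genes changed unequally. Both controls are short. GAPDH is rich in GC (94.9th percentile of the tested genes), against the 66.7th for RPL19 and the 35.1th for SFPQ. With the trend on GC content and length removed, the log2 fold changes were -0.057 for GAPDH, -0.085 for RPL19 and 0.055 for SFPQ. Whether GC content or length caused the differences was not tested.

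The levels of the 4 tested rows were high for their length. With DMSO, the level was 17.3 ± 0.114 CPM per kilobase (SD, n = 2) for SFPQ, 11.6 ± 0.262 for NONO, 9.67 ± 0.615 for MATR3 and 4.26 ± 0.256 for PSPC1. The median of all tested genes was 1.06 CPM per kilobase, and 98.1% of them lay below SFPQ and 88.4% below PSPC1. Over all 4 libraries the levels were 17.2 to 19.2 CPM per kilobase for SFPQ, 10.9 to 11.8 for NONO, 9.06 to 10.1 for MATR3 and 4.08 to 4.44 for PSPC1, so that no neighbours in this order overlapped. The place of MATR3 depends on the length used. Per kilobase of the unshared bases its row stood at 26.4 to 29.4 CPM and above SFPQ. Those bases include 10798 bases of SNHG4, whose part in the counts was not tested. The level of this row is therefore not read as transcription of MATR3 alone.

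The gene whose CPM over the 4 libraries, on the log2 scale and centred on its mean, lay nearest to SFPQ was GON7, a subunit gene of the KEOPS complex that modifies tRNA, at a Euclidean distance of 0.011. EHMT1 and KMT5B, which encode methyltransferases for histone H3 and histone H4, followed at 0.016 and 0.019. The nearest genes to NONO, PSPC1 and MATR3 were MTERF2, TMEM164 and KYAT1, at 0.0083, 0.012 and 0.0075. Among themselves, NONO and PSPC1 were nearest at 0.093 and SFPQ and MATR3 farthest at 0.22. These are distances over 4 libraries among 12612 genes, given as a description.

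Of 32 other genes whose proteins have been found in paraspeckles, 28 were tested. With edgeR, 0 of the 28 were called against 7.1% of all tested genes, and 6 had an unadjusted p under 0.05 against 26.6%. DESeq2 called 3 as higher, namely HNRNPF, TAF15 and WTAP, where it called 10.1% of all tested genes. Their median log2 fold change was 0.037, with values from -0.22 to 0.26, and 19 were above 0 and 9 below, against a median of -0.015 over all tested genes. With upper-quartile factors the medians were -0.037 for the list and -0.088 for all tested genes, and with a factor from the ERCC RNAs they were -0.017 and -0.051. Of the 4 that were not tested, CELF6 and RBM12 share their whole interval with a same-strand gene and had 0 counts in all libraries. RBM7 keeps 652 of 14175 bases and had 5 to 14 counts. FIGN shares none of its bases and had 0 to 8 counts.

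WTAP, a subunit of the complex that methylates adenosine in mRNA, had the largest value, 0.26 (standard error 0.088, edgeR, adjusted p = 0.075), with means of 152 CPM with DMSO and 182 CPM with dTAG. TAF15, an RNA-binding protein that also associates with TFIID, followed at 0.25 with 266 and 316 CPM. The whole WTAP interval is covered on the opposite strand, and TAF15 keeps 122148 of 150826 bases unshared on its own strand. The part of overlapping genes in these counts was not tested. At the other end, AHDC1 and RUNX3, the first a DNA-binding protein with AT-hook motifs and the second a transcription factor of the RUNX family, stood at -0.22 and -0.21. EWSR1, an RNA-binding protein, had a log2 fold change of 0.047, and HNRNPK, an RNA-binding protein needed for paraspeckles, had 0.033. The call counts of this list varied with the setting, from 0 to 14, the highest without DMSO replicate 1, a fit that called 43.5% of all tested genes.

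HEXIM1, PRKDC, XRCC5 and XRCC6 encode the inhibitor of P-TEFb and the DNA-dependent protein kinase with its Ku subunits, which form a ribonucleoprotein complex with paraspeckle proteins. Of the 4, edgeR called 0, against 7.1% of all tested genes, and 0 had an unadjusted p under 0.05, against 26.6%. DESeq2 also called 0, against 10.1%. PRKDC had the largest value at 0.15 and HEXIM1 the smallest at -0.11, with XRCC5 and XRCC6 at 0.068 and 0.0034. Without DMSO replicate 1, PRKDC was called at 0.26 (edgeR, adjusted p = 0.0066), in the fit that called 43.5% of all tested genes.

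**Figure D4:**
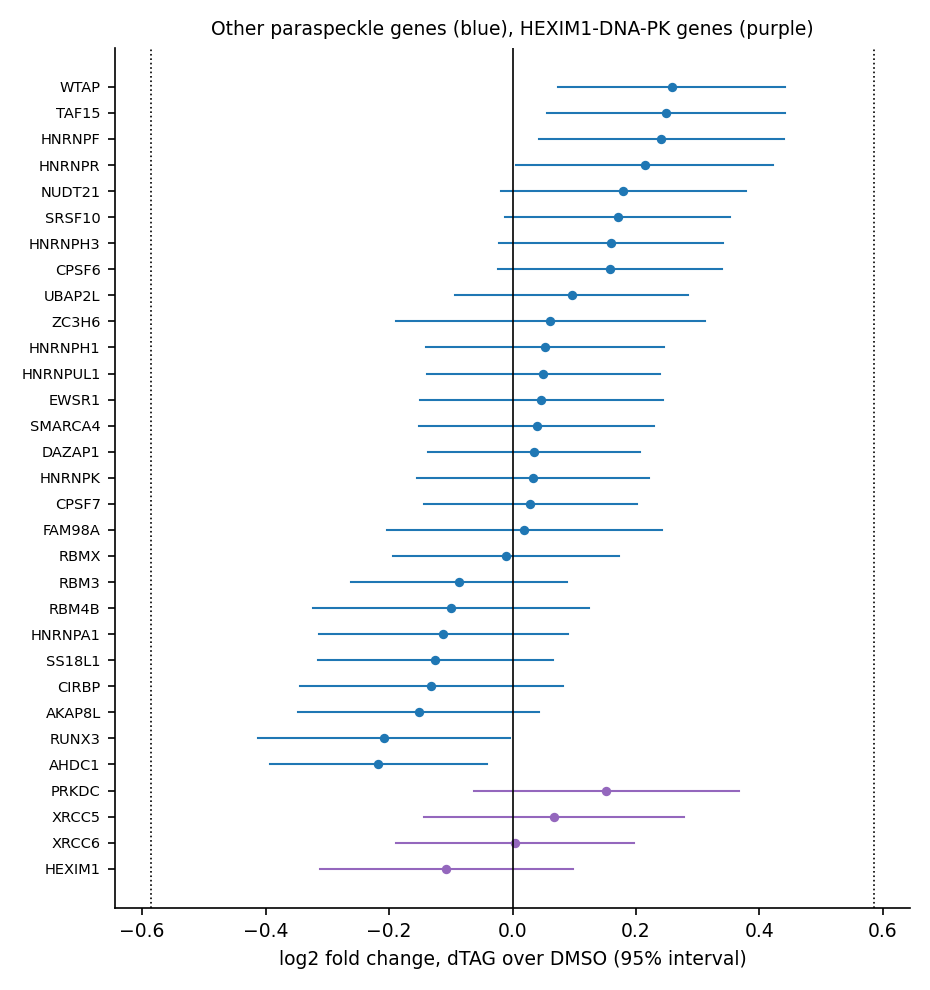
Log2 fold change of dTAG over DMSO (x axis) with its 95% interval (lines) for other paraspeckle genes (blue) and 4 genes of the HEXIM1-DNA-PK complex (purple), with dotted lines at a 1.5-fold change. The values lie between -0.22 for AHDC1 and 0.26 for WTAP, and no interval reaches a 1.5-fold change.

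The direction of the small differences turned under some settings for PSPC1 and MATR3. SFPQ was above 0 under all 16 alternatives, from 0.016 to 0.75. NONO was under 0 in 15, all except ERCC totals, a setting that moved the median of all tested genes above 0. The alternatives reuse the same libraries and are not independent. The highest value of SFPQ came from library sizes set to the totals of the ERCC spike-in RNAs. Under this setting all tested genes had a median of 0.63 and the 4 rows a median of 0.61. Those totals were 14798 and 25165 counts with DMSO and 13870 and 9551 with dTAG, or 0.010% to 0.026% of the gene counts. The standard error of SFPQ in this fit was 0.64. With upper-quartile factors, under which the median over the tested genes was -0.088, SFPQ stood at 0.019 and NONO at -0.15.

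**Figure D5:**
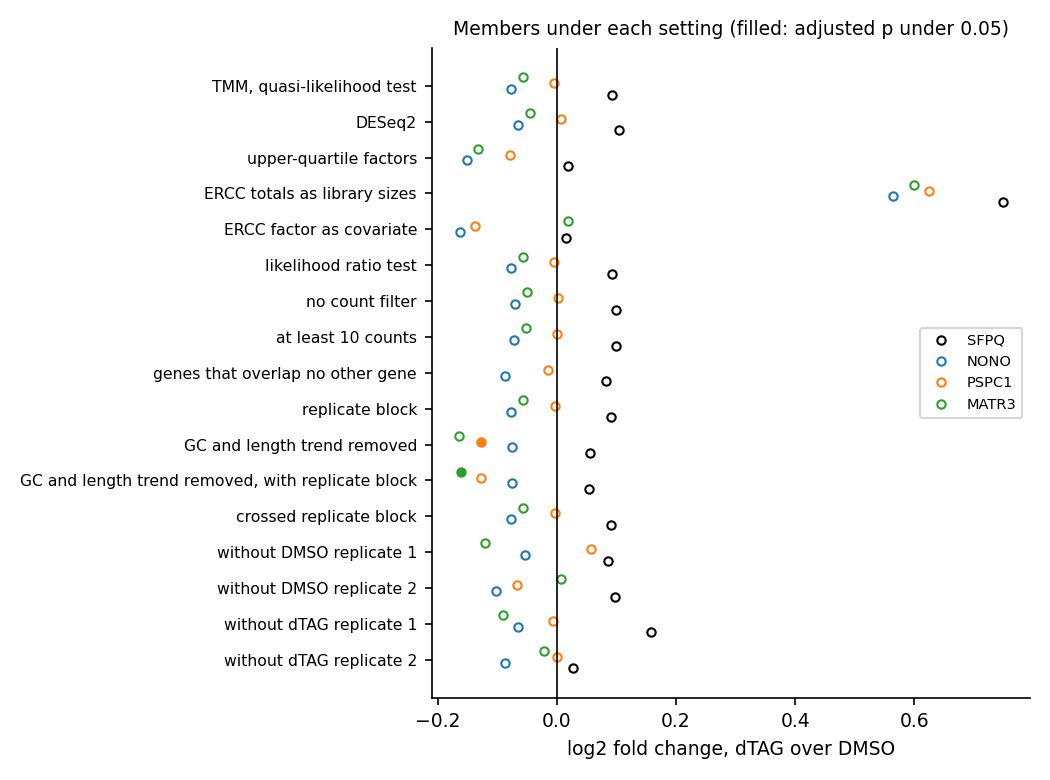
Log2 fold change of dTAG over DMSO (x axis) of SFPQ, NONO, PSPC1 and MATR3 under TMM with the quasi-likelihood test and under each alternative (y axis), with filled points for an adjusted p under 0.05. Filled points are PSPC1 with the GC and length trend removed and MATR3 with the replicate block in addition, and all 4 genes shift together to between 0.56 and 0.75 with ERCC totals as library sizes.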

How the data were processed

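HCT116 cells with degron-tagged KAP1 were profiled by TT-Seq in 2 libraries with DMSO and 2 with dTAG. For the deposited table, the authors used Trim Galore 0.6.4, STAR with hg38, and featureCounts (Subread 1.6.3) over whole intervals of protein-coding genes plus the ERCC spike-ins, and they deposited raw counts, without normalization, for 19901 genes and 92 ERCC RNAs. Strand and overlap settings are not given in the sources used here. Start coordinates are printed as in the deposited table. No sample column was left out.

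Symbols came from a GENCODE 44 table (19802 genes matched), GC content from hg38 and start-site windows from RefSeq. A minimum of 50 counts in each of the 4 libraries was set, and the genes were fitted in R 4.3.3 with edgeR 4.0.16 (TMM, quasi-likelihood F test, two-sided, Benjamini-Hochberg adjustment, no replicate block). A standard error is the absolute log2 fold change over the root of F. The methods name spike-in normalization by RUVSeq without its settings, so that spike-in settings were alternatives. The quasi-likelihood, DESeq2, upper-quartile, likelihood ratio, block, GC and length, and leave-one-out fits were run on simulated data, and the others were not. Of the libraries, only DMSO replicate 1 was left out there. The simulated data held no GC or length trend and no replicate effect, so they cannot check the removal of either. The study's methods call the 2 libraries of a condition biological replicates, and the labels give no more. The p-values, standard errors and intervals rest on the spread between these libraries. The quasi-likelihood test draws the spread of each gene toward that of other tested genes. The standard errors of the 4 rows, 0.087 to 0.10, lay near the median of 0.10 over all tested genes.

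The 6 genes and all lists were chosen with earlier results of these data known. Genes named beside them are those that overlap a member, the RT-qPCR controls, the target, the 2 highest and 2 lowest of a list with fewer than 4 calls, and the 3 (SFPQ) or 1 (others) nearest in pattern. EWSR1, HNRNPK, HNRNPF, MASP2, RBM4 and the genes at low counts fall outside this rule and were chosen after their values were seen. In the list of other paraspeckle genes, 1 gene is counted but not reported here by itself. Alternatives were DESeq2 1.42.0, upper-quartile factors, ERCC totals, an ERCC factor from 14 RNAs, the likelihood ratio test, other count filters, genes without overlap, a replicate block, removal of GC and length trends by lowess (span 0.3) and leaving out each library.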

Additional observations from a re-analysis of the deposited data

How the results depend on the processing

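With 2 libraries per condition, the spread between libraries limits the fold changes, and 3 rows with at most 9 counts could not be tested. Of the 16 alternatives each for SFPQ, NONO and PSPC1 and 15 for MATR3, which drops out where only genes without overlap enter, SFPQ kept its direction and stayed uncalled in all 16, with adjusted p from 0.36 to 1.00. With ERCC totals as library sizes, NONO, MATR3 and PSPC1 were at 0.56, 0.60 and 0.62, none called. MATR3 was at 0.020 with the ERCC factor and PSPC1 at 0.0066 with DESeq2, 0.0013 with no count filter and 0.0010 with at least 10 counts. Without 1 library, PSPC1 ranged from -0.066 to 0.058 and MATR3 from -0.12 to 0.0078. An adjusted p under 0.05 appeared for PSPC1 at -0.13 with the GC and length trend removed and for MATR3 at -0.16 with the replicate block added to that. Each of these fits called 1 of the 4, with 0 in all others, and the cause was not tested.

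Of the other paraspeckle genes, 3 were called with DESeq2 (1273 of all tested genes), 1 each with upper-quartile factors (1124), the ERCC factor (1152) and the likelihood ratio test, 5 with the GC and length trend removed and 6 with the replicate block added. Without 1 library it was 0 to 14, and 0 to 1 of the HEXIM1-DNA-PK genes. Over all tested genes, the 895 calls became 0 with ERCC totals (229 at an unadjusted p under 0.05), 1593 with the likelihood ratio test, 1417 with no count filter, 2284 with the trend removed and 2636 with the replicate block added, and 69 to 5491 without 1 library. The 255 higher and 869 lower calls with upper-quartile factors compare with 434 and 461. In fits without 1 library, the lone library was assumed to vary like the other condition.

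The replicate block left 340 calls, and SFPQ, NONO, PSPC1 and MATR3 stood at 0.091, -0.077, -0.0038 and -0.056. The correlation of deviations over genes was -0.25 for libraries of the same number and 0.25 for numbers crossed. With 2 libraries per condition, these values must be equal with opposite signs. A block with the numbers crossed, added after the data were seen, gave 3190 calls, 7 of them other paraspeckle genes, and 0 of the 4. Levels without TMM factors were 17.7 CPM per kilobase for SFPQ and 11.9 for NONO. The longer MATR3 row, which contains SNHG4, stood at 28.1 CPM per kilobase of unshared bases, a length chosen after the data were seen. The within-library ratios moved by less than 1 SD when 0.5 counts were not added.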
